A study of Mus musculus with 9 samples.

Results

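Spinal cord RNA from mice with experimental autoimmune encephalomyelitis (EAE) that had been given GV1001 was compared with spinal cord RNA from naive mice, across every gene with enough counts. The members of the comparison were the 3 libraries labelled GV1001 and the 3 labelled naive, 6 of the 9 libraries of the series. The remaining 3 came from mice with EAE given vehicle, and their values are printed only beside the others. They also entered the main test, which took its set of tested genes, its scaling and its estimate of spread from all 9 libraries. The labels of all 9 gave a wild-type genotype and spinal cord as the tissue. The labels did not give the mice's age, how or when EAE was induced, or the dose and timing of GV1001, and nothing said that the replicates of a group came from separate animals, so p-values measure the spread between these libraries, which may be technical.

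EAE models multiple sclerosis: T cells primed against myelin, followed by monocytes and neutrophils, cross the endothelium of cord vessels. Infiltrating and resident phagocytes then present antigen and take up damaged myelin, astrocytes become reactive, and the sheaths made by oligodendrocytes are lost. GV1001 is a peptide taken from the catalytic subunit of telomerase, the enzyme that extends chromosome ends. The comparison with naive cord asks how far cord from treated mice with EAE still stood from cord without disease.

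Expression was read as 3′ mRNA counts per gene symbol, with totals of 5292975 to 6174870 counts in the GV1001 libraries and 5542411 to 5792583 counts in the naive libraries. Of 40879 symbols, 15351 had enough counts to be tested. Levels are given as CPM (counts scaled to the TMM-adjusted library total). A cord origin was read from 21 Hox genes, which pattern the cord along its length, of which 20 were tested, whereas 8 of 10 forebrain and cerebellum markers were too low to be tested. The GV1001 libraries varied more among themselves than the naive ones, with a median SD of log2 CPM over genes of 0.216 in GV1001 and 0.163 in naive libraries. On the first principal component of the 6 libraries, which held 44.1% of the variance, GV1001 replicates 1, 2 and 3 lay at -2.35, 59.3 and 17.7, and the naive replicates at -35.1, -13.5 and -26.1. On this component replicate 2 of GV1001 lay farthest from naive cord and replicate 1 nearest to it. The second, with 22.1% of the variance, set GV1001 replicate 1 apart at -46.

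No gene passed the main test. With edgeR's quasi-likelihood test and Benjamini-Hochberg adjustment, 0 of 15351 genes (0%) had an adjusted p under 0.05, and the smallest was 0.061, for Lrg1. At an unadjusted p under 0.05 there were 1121 genes (7.3%), where 5% of the genes tested would be 768. Of these, 668 (4.35%) were higher and 453 (2.95%) lower in GV1001. DESeq2 called 45 of the 18730 genes for which it gave an adjusted p (0.24%), 41 higher in GV1001 (0.219%) and 4 lower (0.0214%), and limma-voom called 0 (0%), with 957 genes at an unadjusted p under 0.05. Because the main test called nothing, genes are described below by their level in each library, by whether the 3 GV1001 libraries overlapped the 3 naive ones, and by the DESeq2 call. Without overlap, 1357 genes (8.84%) were higher and 1265 (8.24%) lower in GV1001, and these shares are the background for every count of members given below. A gene with any naive library at 0 could not have been lower without overlap. Where naive counts were few or none, a gene had enough counts to be tested only through the EAE libraries. There were 11 tested genes with no naive count at all. The sizes were unequal by direction. Among genes without overlap, 393 were more than 2-fold higher and 56 more than 2-fold lower in GV1001, while the median log2 fold change of all genes was 0.00192.

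**Figure D1:**
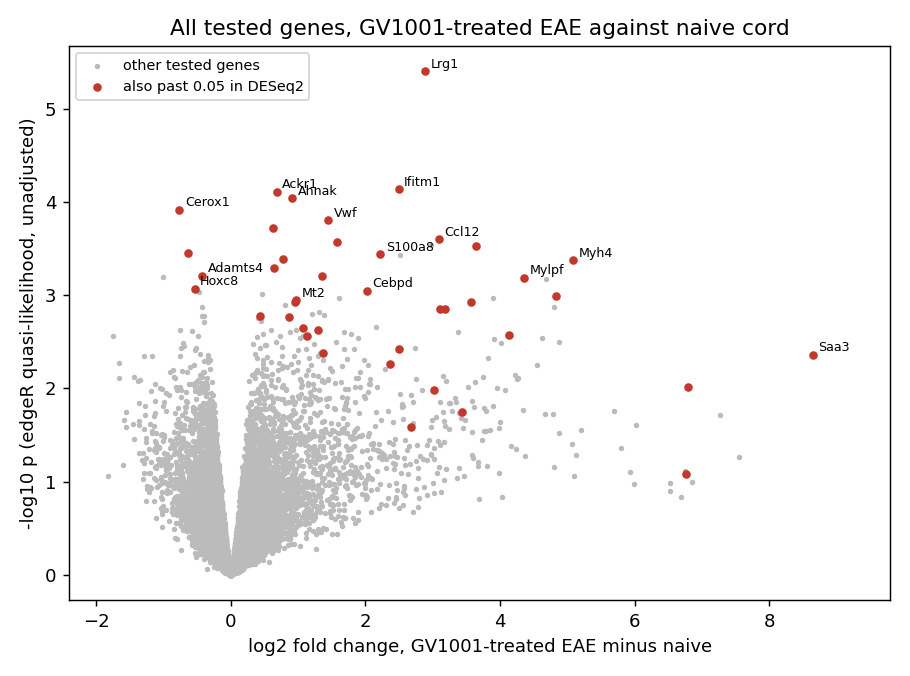
Log2 fold change (GV1001-treated EAE minus naive, x axis) against the unadjusted p of edgeR's quasi-likelihood test (as -log10, y axis) for the 15351 tested genes, with genes that also passed in DESeq2 in red. Lrg1 stands highest at a log2 fold change of 2.89, and the right side reaches to Saa3 while the left side holds few genes beyond -1.

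Genes of activated vessel lining were among those with the smallest p. Lrg1, a secreted glycoprotein made by activated endothelium and in acute-phase responses, was at 34, 69.9 and 47.2 CPM in the GV1001 libraries and 5.07, 6.97 and 8.33 CPM in the naive libraries. The groups were far apart, the lowest GV1001 library lying above 4 times the highest naive one, and the log2 fold change was 2.89 ± 0.34 (SE; edgeR adjusted p = 0.061, DESeq2 adjusted p = 9.13e-16). Vwf, the clotting factor carrier that endothelium stores, was at 37.3, 65.6 and 49.2 CPM in GV1001 and 14.1, 19.9 and 21.6 CPM in naive libraries, a log2 fold change of 1.45 ± 0.26 (DESeq2 adjusted p = 0.00012). Ackr1, a chemokine-binding receptor of venules where leukocytes cross, was at 95.9, 119 and 109 CPM in GV1001 and 69.5, 69 and 62.7 CPM in naive libraries. Its difference was small and very even between libraries, with a log2 fold change of 0.69 ± 0.11 (DESeq2 adjusted p = 0.000449). Ch25h, which makes an oxysterol that guides lymphocytes, was at 4.54, 7.01 and 9.06 CPM in GV1001 and 0, 1.57 and 0.925 CPM in naive libraries, and it too passed in DESeq2 (adjusted p = 0.0423).

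Of 17 tested members of the activated endothelium list, 7 were higher and 1 lower without overlap, and 4 passed in DESeq2. The median log2 fold change of the list was 0.69. Its score in a library, the mean log2 CPM of the members less the naive mean, was 0.44, 1.37 and 0.95 in GV1001 replicates 1 to 3 and -0.19, 0.21 and -0.02 in the naive ones. Ly6c1, a surface protein of brain capillaries, is counted below in the monocyte and macrophage list and not among the barrier genes. It was at 61.1, 68.9 and 63.7 CPM in GV1001 and 43.8, 34.3 and 45.5 CPM in naive libraries (log2 fold change 0.65 ± 0.13, DESeq2 adjusted p = 0.0251). Among genes of the resting barrier, the glucose transporter gene Slc2a1 was at 128, 133 and 133 CPM in GV1001 and 96, 97.9 and 103 CPM in naive libraries, again without overlap but not past either test (DESeq2 adjusted p = 0.11). Over the 22 barrier endothelium genes the median was 0.18, with 6 higher and 1 lower without overlap, and 0 passed in DESeq2. In whole cord, more cells of a type and more RNA per cell cannot be told apart.

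**Figure D2:**
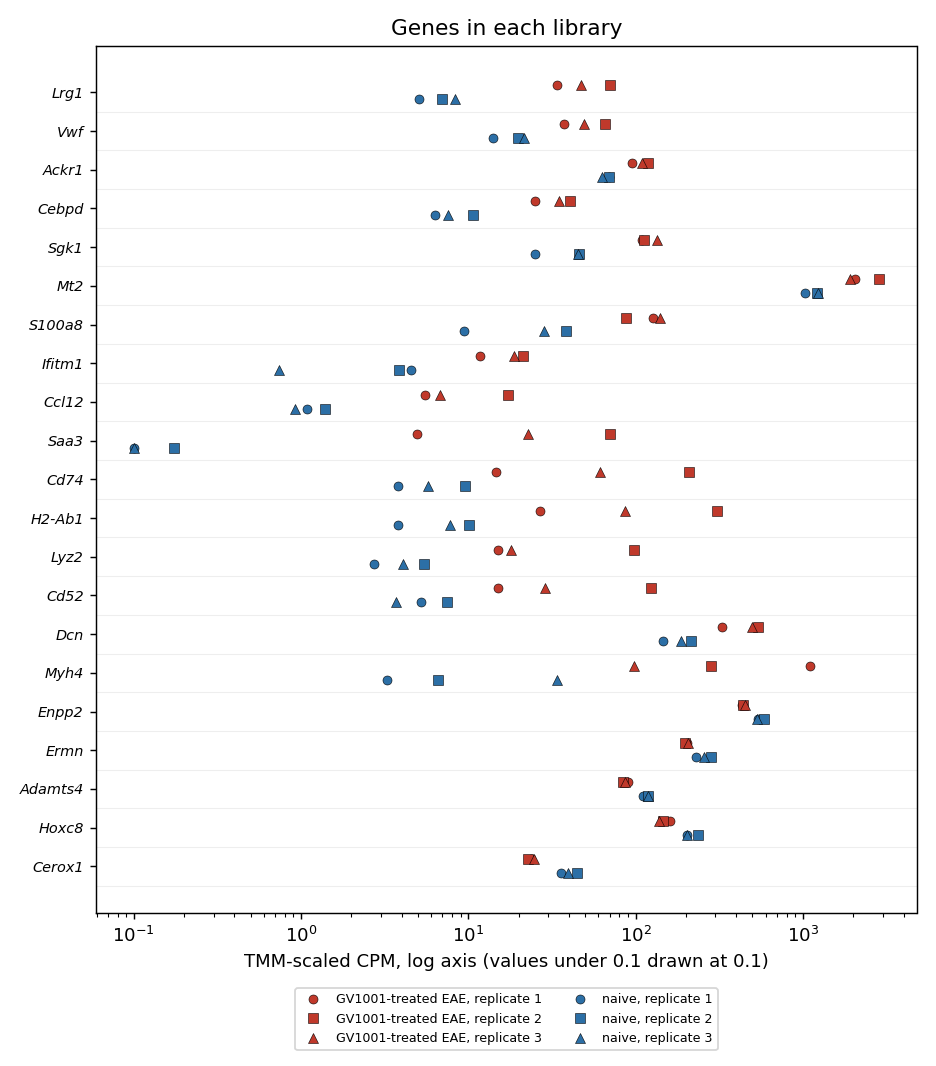
TMM-scaled CPM (x axis, log scale) of 21 genes in each of the 3 GV1001-treated EAE libraries (red, upper) and the 3 naive libraries (blue, lower), with replicates by shape. Lrg1, Vwf, Ackr1, Cebpd, Sgk1 and S100a8 keep the 3 red points together. Cd74, H2-Ab1, Lyz2 and Cd52 spread more widely, with GV1001 replicate 1 lowest, replicate 2 highest and all 3 above the naive points.

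Interleukin 6 family signals drive acute-phase genes through STAT3. Most members of a list of this family, which holds receptors and signalling genes beside acute-phase genes, were higher without overlap between the groups. Cebpd, a transcription factor of the acute-phase response, was at 25, 40.5 and 34.8 CPM in GV1001 and 6.34, 10.6 and 7.59 CPM in naive libraries, with a log2 fold change of 2.03 ± 0.45 (edgeR adjusted p = 0.565, DESeq2 adjusted p = 0.000256). All GV1001 libraries were more than 2-fold above the highest naive one. Cp, the copper-carrying ferroxidase ceruloplasmin, was at 84.1, 147 and 107 CPM in GV1001 and 36.2, 57.7 and 38.5 CPM in naive libraries (log2 fold change 1.35 ± 0.28, DESeq2 adjusted p = 0.000834). Saa3, an acute-phase apolipoprotein, was at 4.92, 70.5 and 22.8 CPM in GV1001 and nearly silent in naive libraries, at 0, 0.174 and 0 CPM, a single count in all. The ratio of GV1001 over naive was 563 with a 95% exact interval of 101 to 22261 that covers counting error only, and it passed in DESeq2 (adjusted p = 0.000866). Lcn2, which binds bacterial iron carriers and marks reactive astrocytes, was at 26.1, 80.8 and 31.2 CPM in GV1001 and 1.45, 6.97 and 1.11 CPM in naive libraries, without overlap but short of the DESeq2 threshold (adjusted p = 0.0888).

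Of 23 tested members of the STAT3 list, 15 were higher without overlap and 0 lower, and 3 passed in DESeq2. These were Cebpd, Saa3 and Lrg1, which is also counted in the activated endothelium list. Saa3, with naive libraries at 0, could not have been lower without overlap. Cp, Lcn2 and Serping1, also described here, are not members of the list. The median log2 fold change was 0.97. GV1001 replicates 1 to 3 scored 0.65, 1.81 and 1.06 and the naive replicates -0.24, 0.22 and 0.017, so every GV1001 library lay above every naive one. Replicate 2 carried much of the size, since the median was 0.49 without it. Stat3 itself, the most abundant member, was at 277, 409 and 288 CPM in GV1001 and 210.03, 279.9 and 227 CPM in naive libraries, and the ranges overlapped. Serping1, the inhibitor of the first complement protease, was at 81.9, 172 and 101 CPM in GV1001 and 21.2, 55.8 and 33.3 CPM in naive libraries, with no overlap.

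Targets of the glucocorticoid receptor were higher by similar amounts in the 3 GV1001 libraries. Glucocorticoids are the adrenal stress hormones, and their receptor switches on a well-known set of genes in glia and endothelium. Sgk1, a kinase among these targets that oligodendrocytes also express, was at 109, 113 and 135 CPM in GV1001 and 25, 46.2 and 45.1 CPM in naive libraries, so that the lowest GV1001 library was more than 2-fold above the highest naive one. Its log2 fold change was 1.61 ± 0.36 (edgeR adjusted p = 0.565, DESeq2 adjusted p = 0.0888). Sult1a1, a sulfotransferase, was at 16.1, 9.29 and 9.22 CPM in GV1001 and 5.79, 4.88 and 4.63 CPM in naive libraries. Nfkbia, which holds NF-kB in the cytoplasm, was at 225, 339 and 299.97 CPM in GV1001 and 138, 168 and 142 CPM in naive libraries. Neither gene overlapped between groups and neither passed in DESeq2, with adjusted p of 0.236 for Sult1a1 and 0.632 for Nfkbia.

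In all, 13 of 18 tested glucocorticoid targets were higher without overlap, 0 were lower, and all 18 had a positive log2 fold change, with a median of 0.56. The GV1001 replicates scored 0.97, 0.95 and 0.73 and the naive replicates -0.15, 0.10 and 0.05. Replicate 1, which was nearest to naive cord for most immune lists, was here as high as replicate 2. The list shares Lcn2, Mt2, Nfkbia, Dusp1 and Plin4 with other lists, and Mt2 was its only member past the DESeq2 threshold. The vehicle libraries, whose comparison uses the same naive libraries, scored 1.12, 0.73 and 0.83, and the median difference of the list between GV1001 and vehicle was 0.048.

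Metallothioneins, small proteins that bind zinc and copper and are induced by metals, glucocorticoids and cytokines, were higher in all 3 members tested. Mt2 was at 2056, 2864 and 1906 CPM in GV1001 and 1032, 1211 and 1237 CPM in naive libraries, a log2 fold change of 0.97 ± 0.22 (DESeq2 adjusted p = 0.00274). Its neighbour Mt1 was at 1602, 2482 and 1812 CPM in GV1001 and 1346, 1432 and 1549.96 CPM in naive libraries, and the brain form Mt3 at 375, 376 and 365 CPM in GV1001 and 316, 293 and 306 CPM in naive libraries. None of the 3 overlapped, and only Mt2 passed in DESeq2. The promoter of Mt2 is shown because it is the metallothionein that passed and its control by metals is well known. Capitals mark the core of the metal response element, searched on both strands as TGCACNC in the 250 bases before the RefSeq start (GRCm38.p6, chr8:94172368-94172617, plus strand).
Mt2: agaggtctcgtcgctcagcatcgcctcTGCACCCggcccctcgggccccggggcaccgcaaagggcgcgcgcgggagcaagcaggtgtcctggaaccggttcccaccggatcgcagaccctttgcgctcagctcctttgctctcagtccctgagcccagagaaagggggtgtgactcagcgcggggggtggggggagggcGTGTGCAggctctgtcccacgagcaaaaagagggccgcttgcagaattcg
The core occurred in the promoters of Mt1 and Mt2, 2 of the 3 metallothioneins, and in 10.4% of 32851 RefSeq promoters of the same length. A match is a description of letters and says nothing of whether the site was used in these cords.

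Neutrophil genes were higher in GV1001 libraries, and replicate 2 was the lowest of the 3. S100a8, a calcium-binding protein that fills neutrophil cytoplasm, was at 127, 87.6 and 140.2 CPM in GV1001 and 9.42, 38.2 and 28.3 CPM in naive libraries, with replicate 3 highest and replicate 2 lowest among the GV1001 libraries. Its log2 fold change was 2.22 ± 0.43 (edgeR adjusted p = 0.405, DESeq2 adjusted p = 0.0428). Its partner S100a9 was at 148, 100.4 and 199.7 CPM in GV1001 and 21.5, 94.3 and 47 CPM in naive libraries, where naive replicate 2 came close to the lowest GV1001 library. Camp, the precursor of a granule antimicrobial peptide, was at 27.4, 9.82 and 26.7 CPM in GV1001 and 4.16, 10.8 and 6.48 CPM in naive libraries, and here GV1001 replicate 2 fell within the naive range. Of 11 tested neutrophil genes, 6 were higher without overlap, 0 were lower and 1 passed in DESeq2, and the median was 1.57. Scores were 1.85, 1.30 and 1.98 in the GV1001 replicates and -0.64, 0.75 and -0.11 in the naive ones, so naive libraries themselves differed in this list, and without naive replicate 2 the median was 2.12.

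Ifitm1, an interferon-induced membrane protein, was at 11.7, 21.2 and 18.8 CPM in GV1001 and 4.53, 3.83 and 0.74 CPM in naive libraries (log2 fold change 2.49 ± 0.40, DESeq2 adjusted p = 2.13e-05). Chil3, a chitinase-like protein of myeloid cells, was at 4.92, 4.73 and 5.01 CPM in GV1001 and 0, 1.05 and 0.925 CPM in naive libraries, the GV1001 libraries being nearly equal to each other, and did not pass in DESeq2 (adjusted p = 0.0888). Both genes were below 5 CPM in every naive library.

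Genes of monocytes, macrophages and leukocytes in general were higher in GV1001, but to very different degrees in the 3 libraries. Lyz2, the lysozyme of myeloid cells, was at 15.1, 98 and 17.9 CPM in GV1001 and 2.72, 5.4 and 4.07 CPM in naive libraries. Cd52, a surface protein of lymphocytes and monocytes, was at 15.1, 124 and 28.8 CPM in GV1001 and 5.25, 7.49 and 3.7 CPM in naive libraries. In both, replicate 2 was several times above replicates 1 and 3, and the spread is seen in the errors of the log2 fold changes, 3.42 ± 1.26 for Lyz2 and 3.34 ± 1.14 for Cd52. Ptprc, the phosphatase CD45 carried by all leukocytes, was at 6.62, 43.3 and 17.5 CPM in GV1001 and 5.79, 8.71 and 6.29 CPM in naive libraries, and GV1001 replicate 1 lay within the naive range. Cd14, a lipopolysaccharide co-receptor of monocytes, was at 5.29, 20.3 and 12.5 CPM in GV1001 and 2.53, 2.79 and 2.04 CPM in naive libraries and did pass in DESeq2 (adjusted p = 0.0119).

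By list, 18 of 24 monocyte and macrophage genes were higher without overlap, Ly6c1 among them, with a median log2 fold change of 2.06. Of 22 pan-leukocyte genes 10 were higher without overlap, with a median of 1.77. No member of either list was lower without overlap. The pan-leukocyte score was 0.47, 2.59 and 0.99 in GV1001 replicates 1 to 3 and -0.15, 0.24 and -0.10 in the naive replicates, so replicate 1 stood just outside the naive range. Without GV1001 replicate 2 the medians were 1.31 for monocytes and macrophages and 0.91 for pan-leukocyte genes. The summed members of the pan-leukocyte list took 0.0198, 0.0803 and 0.0287 percent of all counts in the GV1001 libraries and 0.0134, 0.0171 and 0.0143 percent in the naive libraries.

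**Figure D3:**
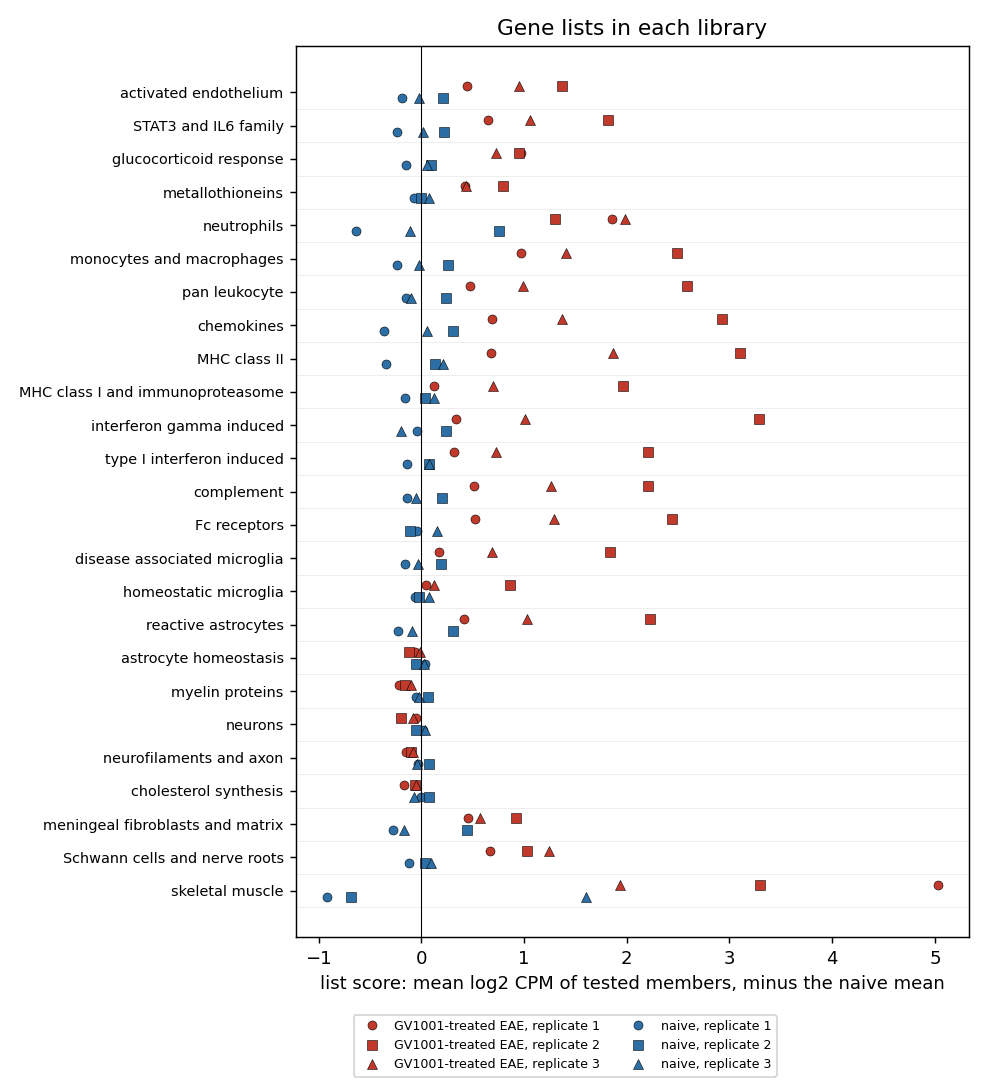
Score of 25 gene lists in each library (x axis, mean log2 CPM of tested members minus the mean of the naive libraries), with the 3 GV1001-treated EAE libraries in red above the 3 naive libraries in blue. Glucocorticoid and neutrophil scores are alike in the 3 GV1001 libraries, and the other immune lists rise from replicate 1 through replicate 3 to replicate 2. Skeletal muscle falls from replicate 1, highest at 5.03, through replicate 2 to replicate 3.

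Chemokines, the attractants that draw leukocytes into tissue, included some of the widest gaps. Ccl12, a monocyte attractant, was at 5.48, 17.4 and 6.79 CPM in GV1001 and 1.09, 1.39 and 0.925 CPM in naive libraries, with a log2 fold change of 3.09 ± 0.58 (DESeq2 adjusted p = 1.73e-05). Ccl8, another monocyte attractant, had 2.27, 11.4 and 3.56 CPM in GV1001 and 0, 0.174 and 0.37 CPM in naive libraries, a ratio of 32.6 with a 95% exact interval of 10.8 to 161, and passed in DESeq2 (adjusted p = 0.00537). The T cell attractants Ccl5 and Cxcl9 were dominated by a single library. Ccl5 was at 1.51, 84.8 and 11.6 CPM in GV1001 and 0, 0.523 and 0.925 CPM in naive libraries, and Cxcl9, which interferon gamma induces, at 1.89, 59.4 and 4.04 CPM in GV1001 and 0.181, 0.174 and 0 CPM in naive libraries. Over the list, 8 of 22 tested chemokine genes were higher without overlap and 0 lower, with a median of 2.17 that was 1.21 without GV1001 replicate 2. Ccl8, Ccl5 and Cxcl9 each had a naive library at 0 CPM, and 1 tested member had no naive count. Such members could not have been lower without overlap, so these counts are a description only.

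Lymphocyte genes were mostly too low to test, 7 of 26 T cell genes and 7 of 16 B and plasma cell genes having enough counts. Cd4, the co-receptor of helper T cells, was among those not tested, with 2, 12 and 3 counts in the GV1001 libraries and 0 in each naive library. That is at least 5.60-fold higher over the group against a floor of 3 counts (0.177 CPM). Cd3d, a chain of the T cell receptor complex, had 0.378, 6.13 and 1.13 CPM in GV1001 and no naive count, and was at least 14.5-fold higher against the same floor. Among the tested members, 4 T cell genes and 3 B and plasma cell genes were higher without overlap, and 0 were lower in either list. Of the tested members, 1 T cell gene and 2 B and plasma cell genes had no naive count. Such genes had enough counts only through the EAE libraries and could not have been lower, so these counts are a description only.

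MHC class II genes, which serve the route by which phagocytes show peptides to helper T cells, gave the largest median of the immune lists described here. Cd74, the invariant chain, was at 14.6, 209.6 and 61.3 CPM in GV1001 and 3.8, 9.59 and 5.74 CPM in naive libraries. H2-Ab1, a beta chain, was at 26.7, 305 and 86.8 CPM in GV1001 and 3.8, 10.1 and 7.77 CPM in naive libraries. Every GV1001 library exceeded every naive one in both, but replicate 2 was more than 10-fold above replicate 1, and neither passed, with DESeq2 adjusted p of 0.244 for Cd74 and 0.121 for H2-Ab1. Of 14 tested members, 8 were higher without overlap and 0 lower, and the median log2 fold change was 2.65, or 1.71 without GV1001 replicate 2. Together the members took 0.0304, 0.215 and 0.0628 percent of counts in the GV1001 libraries and 0.0185, 0.0222 and 0.0223 percent in the naive libraries.

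Genes induced by interferons were likewise highest in GV1001 replicate 2. Interferon gamma comes from T cells and induces GTPases that attack vacuoles and the chemokines named above, while type I interferons induce antiviral genes, and both act in part through a promoter element bound by IRF factors. Irgm2, an interferon gamma induced GTPase, was at 10.4, 43.1 and 9.54 CPM in GV1001 and 4.16, 3.66 and 4.63 CPM in naive libraries. Trim30a, a ubiquitin ligase family member induced by type I interferon, was at 15.7, 49.8 and 23.1 CPM in GV1001 and 6.88, 11.2 and 9.44 CPM in naive libraries. B2m, the light chain of MHC class I, was at 246, 1799 and 569 CPM in GV1001 and 233, 318 and 303 CPM in naive libraries, and GV1001 replicate 1 fell within the naive range.

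The interferon gamma list had 6 of 18 tested members higher without overlap and a median of 2.03, the type I list 13 of 26 and a median of 1.35, and the list of MHC class I and immunoproteasome genes 7 of 16 and a median of 0.91. None of the 3 lists had a member that was lower without overlap or a member past the DESeq2 threshold. In the type I list 1 tested member had no naive count and could not have been lower. Interferon gamma scores were 0.33, 3.28 and 1.01 in GV1001 replicates 1 to 3 and -0.04, 0.24 and -0.20 in the naive replicates. Without GV1001 replicate 2 the medians were 0.54 for the interferon gamma list, 0.46 for the type I list and 0.49 for the MHC class I list, so much of the size rested on that library.

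The promoters of Irgm2, Trim30a and B2m are shown as 1 member of each of these lists, since the response element in them can be read directly. Capitals mark the interferon-stimulated response element, searched on both strands as GAAA, any 2 bases and GAAA in the 250 bases before the RefSeq start. The windows are from GRCm38.p6, at chr11:58214727-58214976 on the plus strand for Irgm2, chr7:104465194-104465443 on the minus strand for Trim30a and chr2:122147437-122147686 on the plus strand for B2m.
Irgm2: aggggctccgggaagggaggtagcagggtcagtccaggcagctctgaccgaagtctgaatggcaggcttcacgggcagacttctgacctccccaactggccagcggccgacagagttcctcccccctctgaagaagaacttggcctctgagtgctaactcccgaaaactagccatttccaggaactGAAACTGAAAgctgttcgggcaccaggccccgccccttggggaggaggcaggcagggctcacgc
Trim30a: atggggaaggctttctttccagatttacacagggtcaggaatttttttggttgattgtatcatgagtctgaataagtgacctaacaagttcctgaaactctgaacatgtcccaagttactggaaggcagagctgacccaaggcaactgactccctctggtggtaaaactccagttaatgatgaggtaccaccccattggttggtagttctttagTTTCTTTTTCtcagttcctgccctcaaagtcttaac
B2m: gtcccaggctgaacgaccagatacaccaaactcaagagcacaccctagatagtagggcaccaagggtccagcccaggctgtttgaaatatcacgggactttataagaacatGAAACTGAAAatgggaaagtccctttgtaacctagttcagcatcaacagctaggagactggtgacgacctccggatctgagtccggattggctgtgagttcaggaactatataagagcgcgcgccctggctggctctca
The element was found in 9 of the 13 interferon gamma list promoters with a RefSeq entry (69.2%), in 8 of 19 of the type I list (42.1%) and in 2 of 13 of the MHC class I list (15.4%), against 2.98% of 32851 RefSeq promoters of the same length. The lists consist of genes known for this induction, so the shares describe the lists and not these libraries.

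Complement genes, which tag debris and synapses for uptake, were higher in 10 of 21 tested members without overlap, with 0 lower and 2 past the DESeq2 threshold. C1s1, a protease of the first complement complex, was at 5.29, 14.4 and 8.89 CPM in GV1001 and 1.45, 2.96 and 0.555 CPM in naive libraries (DESeq2 adjusted p = 0.0205). Cfb, the protease of the alternative pathway, was at 4.35, 36.8 and 8.57 CPM in GV1001 and 0.362, 0.349 and 0.185 CPM in naive libraries. The list median was 1.66, and 0.95 without GV1001 replicate 2.

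Microglia, the resident phagocytes of the cord, were read from 2 lists. Of 16 tested genes of resting microglia, 4 were higher without overlap and 0 lower, with a median of 0.39 (0.11 without GV1001 replicate 2). Tmem119, a microglial surface protein, was at 11.7, 38.6 and 23 CPM in GV1001 and 9.23, 17.4 and 12.4 CPM in naive libraries, and P2ry12, the purine receptor by which resting microglia sense injury, at 11.7, 14 and 11.8 CPM in GV1001 and 10.7, 9.41 and 15 CPM in naive libraries. Both overlapped between groups, and P2ry12 was close to equal, with a log2 fold change of 0.10 ± 0.27 that turned to -0.0371 without naive replicate 2. Of 24 genes of the disease-associated state, in which microglia take up lipid and debris, 8 were higher without overlap and 0 lower, with a median of 0.65 (0.25 without GV1001 replicate 2). Itgax, an integrin of that state and of dendritic cells, was at 0.756, 11.6 and 1.94 CPM in GV1001 and 0.181, 0.174 and 0 CPM in naive libraries. Apoe, the lipid carrier of glia, was at 1294, 2355 and 1777 CPM in GV1001 and 1306, 1412 and 1419 CPM in naive libraries, with replicate 1 in the naive range. The scores of the disease-associated list were 0.17, 1.84 and 0.69 in GV1001 replicates 1 to 3 and -0.16, 0.19 and -0.031 in naive ones.

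Lysosomal and lipid-handling genes had smaller medians than the MHC class II, chemokine and interferon lists, and GV1001 replicate 2 carried much of them. Psap, the precursor of the sphingolipid activator proteins, was at 2063, 1844 and 1528 CPM in GV1001 and 1348, 1219.8 and 1316 CPM in naive libraries, and the protease gene Tpp1 at 174, 181 and 177 CPM in GV1001 and 140.1, 139 and 139 CPM in naive libraries. The lowest GV1001 library exceeded the highest naive library in both, although the log2 fold changes were only 0.48 ± 0.15 for Psap and 0.35 ± 0.12 for Tpp1. Of 30 lysosomal genes 11 were higher without overlap and 0 lower (median 0.35, 0.17 without GV1001 replicate 2), and of 19 genes of lipid efflux and uptake 6 were higher and 0 lower (median 0.32, 0.19 without GV1001 replicate 2). Scores in GV1001 replicates 1 to 3 were 0.19, 0.93 and 0.33 for the lysosomal list and 0.37, 0.83 and 0.49 for the lipid list. The lipid list also holds Ch25h, described above, which has its largest log2 fold change, 3.02 ± 0.98.

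Astrocytes, which support neurons and wall off lesions, were read from genes of their reactive state and of their resting work. Of 29 reactive genes 14 were higher without overlap and 0 lower, with a median of 1.35, and 0.61 without GV1001 replicate 2. Of these, 1 had no naive count and could not have been lower. The list shares Vim and Cd14 with the monocyte list, Lcn2 with neutrophils, and C3 and Serping1 with complement. It also shares Cxcl10, Gbp2, Psmb8 and H2-D1 with the chemokine, interferon gamma or MHC class I lists. Its counts are therefore not separate from theirs or particular to astrocytes. Vim, an intermediate filament gene, was at 119, 287 and 171 CPM in GV1001 and 71.3, 105 and 75.3 CPM in naive libraries. Serpina3n, a protease inhibitor of reactive astrocytes, was at 19.1, 167 and 35.1 CPM in GV1001 and 16.8, 20.9 and 24.1 CPM in naive libraries, and only replicate 2 and, by less, replicate 3 stood above the naive range. Gfap, the astrocyte filament gene, was at 429, 1201 and 850.3 CPM in GV1001 and 560.2, 825 and 643 CPM in naive libraries, with overlap and with a log2 fold change of 0.29 ± 0.34 that turned to -0.0793 without GV1001 replicate 2. Of 22 genes of resting astrocytes 2 were higher and 3 lower without overlap, with a median of -0.093. Aldh1l1, a folate enzyme used as an astrocyte marker, was among the higher, at 23.4, 24.9 and 24.3 CPM in GV1001 and 16.8, 13.4 and 17.6 CPM in naive libraries.

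Myelin genes, made by oligodendrocytes to sheathe axons, had a list median below 0. Of 29 tested myelin genes, 13 were lower and 3 higher without overlap, against 8.24% and 8.84% of all genes, and none passed in edgeR or DESeq2. Mbp, which compacts the sheath, was at 7586, 7893 and 8806 CPM in GV1001 and 9335, 10170.1 and 9751 CPM in naive libraries, a log2 fold change of -0.27 ± 0.15. Its groups did not overlap, and the same held for Mog, an outer-surface myelin protein and a usual EAE antigen, at 177, 164 and 188 CPM in GV1001 and 196, 204 and 200.2 CPM in naive libraries.

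Within the list the lowest p belonged to Ermn, a cytoskeletal protein of the myelinating process, at 204, 198 and 206 CPM in GV1001 and 229.8, 281 and 257 CPM in naive libraries (log2 fold change -0.34 ± 0.095). Enpp2, the enzyme autotaxin that makes a signalling lipid, was at 432, 438 and 451 CPM in GV1001 and 537, 588 and 536 CPM in naive libraries (log2 fold change -0.33 ± 0.093). Car2, a carbonic anhydrase of oligodendrocytes, was at 324, 260.3 and 286 CPM in GV1001 and 361, 352 and 391 CPM in naive libraries. Cd9, a tetraspanin that leukocytes and vessels also carry, went the other way, at 100.2, 173 and 107 CPM in GV1001 and 63.4, 96.7 and 68.1 CPM in naive libraries. The list median was -0.22 and scores were -0.22, -0.16 and -0.10 in GV1001 replicates 1 to 3 and -0.049, 0.068 and -0.019 in naive ones. Unlike the immune lists, replicate 1 was the farthest from naive cord here.

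Precursors and lipid supply showed less. Of 20 oligodendrocyte precursor genes 4 were lower and 0 higher without overlap (median -0.055, -0.12 to 0.0035 with 1 library left out), and the proteoglycan gene Cspg4 among them was at 16.8, 19.5 and 21.2 CPM in GV1001 and 27.3, 23 and 24.2 CPM in naive libraries. Of 25 genes of cholesterol synthesis, the sterol that myelin needs in bulk, 3 were lower and 1 higher without overlap (median -0.11, -0.16 to -0.037 with 1 library left out). Hmgcs1, an early enzyme of that pathway, was at 519, 492 and 501 CPM in GV1001 and 567, 653 and 513 CPM in naive libraries and overlapped. Lss, which closes the sterol rings, was at 17.8, 17.2 and 19.9 CPM in GV1001 and 24.4, 26 and 24.4 CPM in naive libraries, without overlap.

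Of 24 neuronal markers 23 had a negative log2 fold change, with a median of -0.10 (-0.13 to -0.063 with 1 library left out). Without overlap 3 were lower and 0 higher, against 8.24% and 8.84% of all genes. Map2, a dendritic microtubule protein, was at 751, 658 and 674 CPM in GV1001 and 866, 775 and 883 CPM in naive libraries, and Snap25, a synaptic fusion protein, at 1437, 987 and 1183 CPM in GV1001 and 1379, 1247 and 1455 CPM in naive libraries with overlap. Of 18 neurofilament and axon genes 8 were lower and 0 higher without overlap. Nefl, the light neurofilament chain, was at 2126, 1904 and 2063 CPM in GV1001 and 2333, 2361 and 2361 CPM in naive libraries. Ank3, which anchors sodium channels at the axon's initial segment and nodes, was at 836, 901 and 950.4 CPM in GV1001 and 1013, 1034 and 1035 CPM in naive libraries, and Sptbn4, a spectrin of the same sites, at 32.9, 32.4 and 32.7 CPM in GV1001 and 35.7, 43.6 and 38.3 CPM in naive libraries. Of 24 voltage-gated channel genes 6 were lower and 0 higher without overlap (median -0.14, -0.22 to -0.088 with 1 library left out), among them the sodium channel gene Scn1a at 348, 303 and 328 CPM in GV1001 and 395, 353 and 372 CPM in naive libraries. Scn1a, Scn2a, Scn8a, Kcna1 and Kcna2 are in both the channel list and the neurofilament and axon list, so these counts share genes.

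The lower gene with the smallest p was Cerox1, a long noncoding RNA that affects respiratory complex I, at 23.6, 22.8 and 24.6 CPM in GV1001 and 35.9, 45 and 39.6 CPM in naive libraries. The 3 GV1001 values lay within 2 CPM of each other, the log2 fold change was -0.76 ± 0.13, and it passed in DESeq2 (adjusted p = 0.0157). Adamts4, a protease that cleaves matrix proteoglycans and is made by oligodendrocytes, was at 89.8, 83.8 and 86.8 CPM in GV1001 and 111, 119 and 119 CPM in naive libraries (log2 fold change -0.42 ± 0.088, DESeq2 adjusted p = 0.0488). Hoxc8, a patterning factor of the middle cord, was at 162, 146 and 137 CPM in GV1001 and 203, 238 and 203 CPM in naive libraries (log2 fold change -0.53 ± 0.12, DESeq2 adjusted p = 0.0327). Hoxc6 was at 108, 109 and 134 CPM in GV1001 and 152, 163 and 145 CPM in naive libraries, and Hoxc4 at 22.7, 19.8 and 29.4 CPM in GV1001 and 33.9, 35 and 31.8 CPM in naive libraries, both without overlap. Of 20 tested Hox genes 5 were lower and 0 higher without overlap (median -0.14, -0.20 to -0.068 with 1 library left out).

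The 10 lower genes with the smallest p among those at 5 CPM or more and without overlap had log2 fold changes between -0.76 and -0.39. Sox2, a factor of ependymal cells and glia, was at 50.5, 59.2 and 56 CPM in GV1001 and 81.8, 80.9 and 69.2 CPM in naive libraries. Ephb1, an axon guidance receptor, was at 94.5, 92.7 and 105 CPM in GV1001 and 126, 135 and 130.3 CPM in naive libraries. Neither of these passed in DESeq2, and their groups did not overlap.

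Of the other higher genes with a DESeq2 call, some were close to each other within groups, as the 3 given here, and others were far apart. Ahnak, a giant scaffold protein of vessels and nerve sheaths, was at 185, 213 and 204 CPM in GV1001 and 82.2, 127 and 110.3 CPM in naive libraries (log2 fold change 0.91 ± 0.15, DESeq2 adjusted p = 7.38e-05). Xbp1, a transcription factor of the unfolded protein response and of secretory cells, was at 53.3, 59.6 and 54.5 CPM in GV1001 and 33.9, 35.4 and 39.6 CPM in naive libraries (log2 fold change 0.62 ± 0.11, DESeq2 adjusted p = 0.0154). Crtc3, a coactivator of cyclic AMP signalling, was at 28.6, 27.5 and 27.3 CPM in GV1001 and 16.3, 16 and 16.5 CPM in naive libraries (DESeq2 adjusted p = 0.0453). Heat shock and unfolded protein genes as a list held near 0, with a median of 0.12 and 5 of 27 higher and 4 lower without overlap.

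Ribosomal protein genes leaned one way by a small amount. All 32 tested had a positive log2 fold change, 12 were higher and 0 lower without overlap, and the median was 0.23. Rpl37a was at 332, 275 and 262 CPM in GV1001 and 226, 197 and 216 CPM in naive libraries and passed in DESeq2 (adjusted p = 0.0436). Scores were 0.31, 0.23 and 0.12 in GV1001 replicates 1 to 3 and 0.015, -0.047 and 0.031 in naive ones, so replicate 1, nearest to naive in the immune lists, was highest here. Ribosomal protein genes have many processed copies in the genome, and how reads shared with copies were counted was not given, so single members are uncertain.

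Markers of tissue next to the cord differed between the groups and stand beside all of the above. Skeletal muscle genes were higher in 13 of 18 tested members without overlap, with 4 past the DESeq2 threshold and a median log2 fold change of 3.91. Myh4, a fast muscle myosin, was at 1101, 283 and 97.5 CPM in GV1001 and 3.26, 6.62 and 34 CPM in naive libraries (DESeq2 adjusted p = 0.0233), and Mylpf, a fast myosin light chain, at 329, 116 and 37.2 CPM in GV1001 and 3.62, 4.01 and 15.9 CPM in naive libraries (DESeq2 adjusted p = 0.0423). Replicate 1 was the highest in both and replicate 3 the lowest. Read after their values were seen, the 45 DESeq2 calls also held Klhl31, Tmem182, Myom2, Mylk2, Mylk4, Ampd1 and Actc1, further genes of striated muscle, all of them higher in GV1001. The muscle list took 0.622, 0.169 and 0.0627 percent of counts in the GV1001 libraries and 0.0064, 0.00725 and 0.0405 percent in the naive ones. With muscle, Schwann and ganglion genes taken out of the table, the main test still called 0 genes, and its smallest adjusted p was 0.0513.

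Schwann cells, which myelinate the nerve roots, were marked by 16 tested genes, of which 12 were higher and 0 lower without overlap and 2 passed in DESeq2. The median was 0.99, and the scores were 0.67, 1.03 and 1.24 in GV1001 replicates 1 to 3 and -0.12, 0.031 and 0.089 in naive ones. Drp2, a part of the sheath's outer scaffold, was at 109, 136 and 182 CPM in GV1001 and 71.5, 64.7 and 84.2 CPM in naive libraries (log2 fold change 0.96 ± 0.22, DESeq2 adjusted p = 0.0167), and Egr2, the transcription factor that drives Schwann cell myelination, at 12.1, 11.4 and 16.2 CPM in GV1001 and 2.9, 4.36 and 6.11 CPM in naive libraries (log2 fold change 1.57 ± 0.30, DESeq2 adjusted p = 0.00926). Peripheral myelin genes were thus higher in the libraries in which central ones were lower. The list took 0.253, 0.275 and 0.368 percent of counts in GV1001 and 0.157, 0.114 and 0.162 percent in naive libraries.

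**Figure D4:**
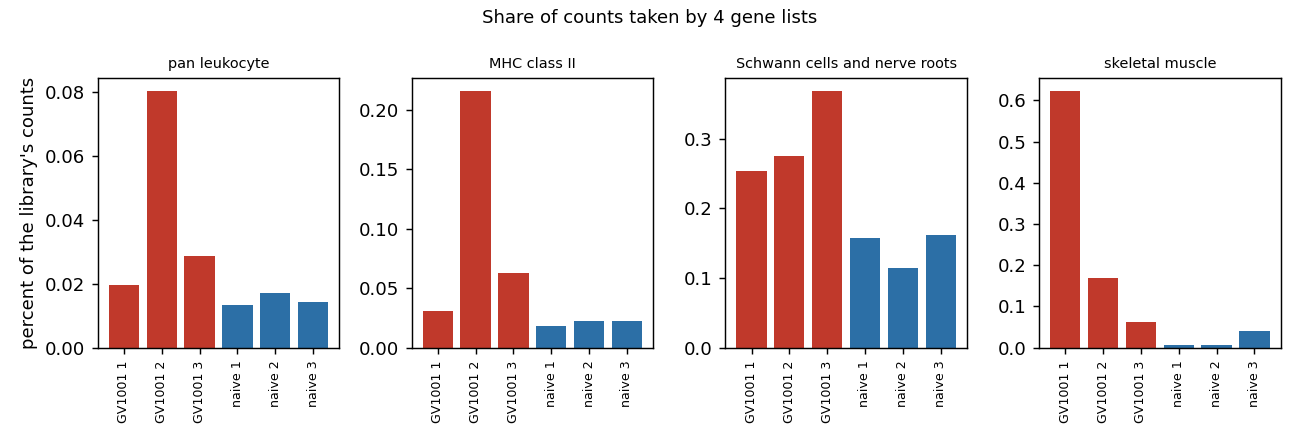
Percent of each library's counts (y axis, from 0, scaled per panel) taken by 4 gene lists, with GV1001-treated EAE libraries in red left of naive libraries in blue. Leukocyte and MHC class II shares peak in GV1001 replicate 2, the Schwann cell share in replicate 3 and the muscle share in replicate 1.

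Fat cell, fibroblast and ganglion genes were read as well. Of 9 fat cell genes only 4 had enough counts to be tested, and 1 was higher and 0 lower without overlap (median 1.06). Of 24 meningeal fibroblast and matrix genes 7 were higher and 0 lower without overlap, with a median of 0.58 (0.93 without naive replicate 2). Dcn, a matrix proteoglycan, was at 329, 539.9 and 498 CPM in GV1001 and 146, 214 and 188 CPM in naive libraries (log2 fold change 1.32 ± 0.31). Dorsal root ganglion genes separated no groups, with 0 of 12 free of overlap and a median of 0.046, but they separated libraries. Scores were -1.16, 2.06 and 0.96 in GV1001 replicates 1 to 3 and -1.16, 2.13 and -0.97 in naive ones, so replicate 2 was the highest in both groups, and the median was 1.74 without naive replicate 2 and -0.60 without GV1001 replicate 2. These markers moved with the groups or the libraries, and their part in the results on cord genes was not tested.

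The vehicle-treated libraries give the scale of the disease without GV1001, though both comparisons rest on the same 3 naive libraries. The median log2 fold change against naive was 2.65 in GV1001 and 4.35 in vehicle for MHC class II, 2.17 in GV1001 and 3.61 in vehicle for chemokines, and 0.65 in GV1001 and 2.16 in vehicle for disease-associated microglia. The libraries of the 2 groups interleaved in these lists. Scores were 0.67, 3.11 and 1.87 in GV1001 replicates 1 to 3 and 4.43, 1.41 and 2.46 in vehicle ones for MHC class II, and 0.17, 1.84 and 0.69 in GV1001 and 3.24, 0.59 and 2.43 in vehicle for disease-associated microglia. Chemokine scores were 0.69, 2.93 and 1.37 in GV1001 and 3.62, 1.47 and 2.03 in vehicle, so that GV1001 replicate 2 lay above vehicle replicate 2 in all 3 lists. For myelin it was -0.22 in GV1001 and -0.22 in vehicle. For Lrg1 the GV1001 libraries held 34, 69.9 and 47.2 CPM and the vehicle libraries 55.7, 58 and 32.9 CPM, and for Cd74 the GV1001 libraries held 14.6, 209.6 and 61.3 CPM and the vehicle libraries 724, 26.3 and 89.5 CPM. Vehicle replicate 1 was the highest of all libraries for Cd74, whereas the groups covered like ranges for Lrg1.

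Tested directly, GV1001 against vehicle gave 0 of 15351 genes past an adjusted p of 0.05 in edgeR (0%), with 1394 genes at an unadjusted p under 0.05 and a smallest adjusted p of 0.528. DESeq2 called 13 of 15188 (0.0856%). Myh4, described above, was higher than in vehicle, at 1101, 283 and 97.5 CPM in GV1001 and 17.4, 8.83 and 1.19 CPM in vehicle (DESeq2 adjusted p = 0.0137). Read after their values were seen, the muscle list genes Mybpc2 and Casq1 were also called higher than in vehicle. Their DESeq2 adjusted p was 0.0137 for Mybpc2 and 0.0289 for Casq1. Atf3, an injury-induced transcription factor, was lower than in vehicle, at 2.08, 5.08 and 4.04 CPM in GV1001 and 19.4, 9.2 and 13 CPM in vehicle (DESeq2 adjusted p = 0.0289), with 0.724, 1.05 and 0.925 CPM in naive libraries. Lypd1, which modulates acetylcholine receptors, was at 56.7, 55.9 and 59.3 CPM in GV1001 and 36.7, 41.7 and 36.4 CPM in vehicle (DESeq2 adjusted p = 0.0499), while naive libraries held 63.7, 57.5 and 66.6 CPM. Without vehicle replicate 2 the edgeR count against vehicle was 8 genes, all lower in GV1001.

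**Figure D5:**
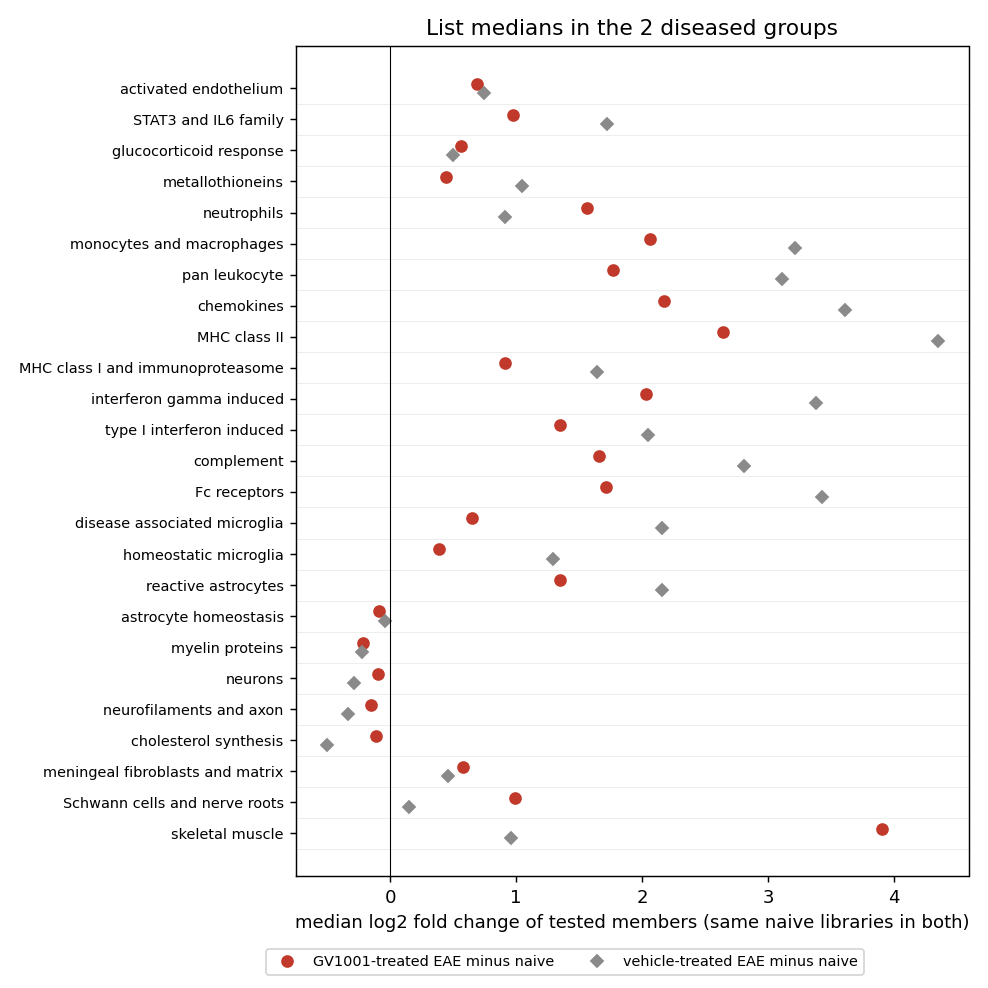
Median log2 fold change against the same 3 naive libraries (x axis) of the tested members of 25 gene lists, for GV1001-treated EAE (red circles) and vehicle-treated EAE (grey diamonds). GV1001 lies nearer to 0 than vehicle for the immune lists, close to vehicle for endothelium, glucocorticoid targets and myelin, and farther from 0 for neutrophils, Schwann cells and skeletal muscle; the differences between the symbols carry no test.

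Tert, the mouse gene for the catalytic subunit of telomerase, was close to silent. It had 0, 1 and 6 counts in the GV1001 libraries and 0, 1 and 0 in the naive libraries, a ratio of 6.92 with a 95% exact interval of 0.889 to 312, and was not tested. Of 14 tested genes of telomerase and telomere upkeep 0 were higher and 1 lower without overlap. That was Terf1, a telomere-binding protein, at 8.89, 7.71 and 7.6 CPM in GV1001 and 10.7, 11.3 and 9.62 CPM in naive libraries, and the list median was -0.076 (-0.084 to 0.0083 with 1 library left out).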

How the data were processed

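The authors deposited raw read counts per gene symbol, as 1 table and as single-library files, and 9 of 9 of the latter held the same values as the table. Per the labels' protocols, RNA was extracted with TRIzol or a Maxwell kit (which one per sample is not given) and libraries were made with a QuantSeq 3′ kit. The submitters' processing notes name FastQC, STAR, HTSeq and GRCm39, with no versions. Strand setting, annotation release and the treatment of reads shared by near-identical genes are not given in the sources used here, so members of close families (H2, Ifitm, Irgm, ribosomal) and overlapping genes are less certain. Groups came from sample titles. No count column was left out.

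Genes were filtered with filterByExpr (minimum count 10) and TMM-scaled. The main test was the quasi-likelihood F test of edgeR 4.0.16, current form, fitted to the 9 libraries together, each group having its own coefficient, so that the groups share 1 estimate of spread, with Benjamini-Hochberg adjustment at 0.05 and two-sided p. SEs follow from the F statistic. DESeq2 1.42.0, run without the filter, and limma-voom 3.58.1 were alternatives (R 4.3.3), beside other scalings, filters, priors, a replicate block, the 6 libraries alone and each library left out. The procedure was tested on simulated counts. Log2 CPM used a prior count of 2. Ratios for genes with 1 to 3 naive counts carry exact Poisson intervals, and floors are 3 counts over a group. Intervals and floors cover counting error only.

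The 57 gene lists and the genes named were chosen with earlier results of these data known. Genes were named by rule: the 10 smallest p per direction at 5 CPM or more without overlap, filled up to 30, the 4 widest gaps per direction, each list's most abundant member and 3 smallest p, and genes fixed by name. The rule's first clause, genes past the adjusted p, gave 0. Not all are printed, and some items are not reported here. Symbols of mitochondrial genes were matched after the table was seen. Promoters are RefSeq's (GRCm38.p6), an earlier build than the files', so no other coordinates are given. Figures were drawn with matplotlib.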

Additional observations from a re-analysis of the deposited data

How the results depend on the processing

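The count of genes past an adjusted p of 0.05 in GV1001 against naive, 0 in the main fit, was 45 in DESeq2. It was 1 with upper-quartile normalization, 1 without a filter on low counts, 1 with the legacy form of the quasi-likelihood test and 1 at an adjusted p of 0.1, and the gene was Lrg1 each time. With the 6 libraries alone it was 5 (Cebpd, Lrg1, Pmp22, Sgk1 and Txnip; Txnip and Pmp22 were named after their values were seen). It stayed at 0 with limma-voom, RLE, a filter at a mean of 5 CPM, a robust prior and the neighbouring-tissue genes removed. Leaving out 1 library gave 0 to 3 genes, 3 without vehicle replicate 1 and 2 without vehicle replicate 2. GV1001 against vehicle, also 0, gave 13 in DESeq2 and 0 to 8 with 1 library left out, 8 without vehicle replicate 2. Genes without overlap, 2622 in all, numbered 3936 to 5453 with 1 of the 6 libraries left out, where fewer libraries overlap less often by construction, and 2107 at 5 CPM or more.

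Whether the replicate numbers pair the libraries was not stated, and 3 libraries a group are too few to settle it. After group means were removed, the correlations of same-numbered GV1001 and naive libraries were 0.138, 0.248 and -0.0663. Those of differently numbered libraries ran from -0.255 to 0.144. With the replicate block the count stayed at 0, with a smallest adjusted p of 0.173.

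Of 92 named genes, 2 turned direction under an alternative. With 1 library left out the log2 fold change of Gfap ran from -0.079 (without GV1001 replicate 2) to 0.60 and that of P2ry12 from -0.037 (without naive replicate 2) to 0.31. In 32 the call was gained under an alternative, and in 0 was a call lost, since the main fit made none. Of 57 list medians, 29 moved by more than the spread between libraries under at least 1 alternative, chiefly without GV1001 replicate 2.

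Limits come from 3 libraries a group with an uneven GV1001 group. DESeq2 pools spread differently and keeps genes that the main filter drops, and the cause of its higher count was not tested. The median log2 fold change of all genes stayed between -0.0111 and 0.0097 in all settings. For 11 tested genes with no naive count the fitted fold change depends on the prior count, and with these at their bound no list median moved.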

Other observations

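Several gene groups not described above were read in the same way. Of 6 genes of the phagocyte oxidase, which makes superoxide, 5 were higher and 0 lower without overlap in GV1001, with a median log2 fold change of 2.04 (1.24 without GV1001 replicate 2). Cybb, its catalytic subunit, was at 15.3, 107 and 32.8 CPM in GV1001 and 5.25, 13.9 and 8.51 CPM in naive libraries. Of 8 tested Fc receptor genes, which bind antibody-coated targets, 4 were higher and 0 lower without overlap (median 1.71, 0.71 without GV1001 replicate 2). Fcgr2b, the inhibitory receptor, was at 4.92, 33.3 and 8.09 CPM in GV1001 and 1.63, 1.57 and 1.67 CPM in naive libraries. Of 25 inflammasome and NF-kB genes 7 were higher and 1 lower without overlap (median 1.16, 0.48 without GV1001 replicate 2). Il1b, an inflammasome product, was at 0.756, 13.8 and 1.29 CPM in GV1001 and 0, 0.523 and 0.185 CPM in naive libraries.

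Genes of dividing cells showed little difference, with 1 of 22 higher and 0 lower without overlap and a median of 0.26 (0.17 to 0.42 with 1 library left out). Of 24 receptor genes for glutamate, GABA and glycine 22 had a negative log2 fold change, 3 were lower without overlap and 0 higher, and the median was -0.13 (-0.21 to -0.041 with 1 library left out). Gabra3, a GABA receptor subunit, was at 70.9, 77.6 and 83.6 CPM in GV1001 and 91.3, 84.4 and 92.7 CPM in naive libraries. Of 18 neuropeptide genes 1 was higher and 1 lower, and of 11 motor neuron genes 0 were free of overlap. The nuclear genes of the respiratory chain held near 0, with a median of 0.043 and 2 of 32 higher and 0 lower without overlap. Red blood cell genes, a sign of how well vessels were emptied, had a negative log2 fold change in all 7 tested and 0 free of overlap (median -0.53, -0.98 without naive replicate 1 and -0.06 without naive replicate 3).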
